A study of Mus musculus with 12 samples.

Results

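The 6 genes described here were mt-Cytb, mt-Co1, mt-Co2, mt-Co3, mt-Atp6 and mt-Atp8, which the mouse mitochondrial chromosome (chrM) encodes for complexes III, IV and V of the respiratory chain. They were chosen by name among the 53762 entries of the deposited count table, and the same chromosome carries 13 protein-coding entries in all. The members were read in 12 bulk RNA-Seq libraries of T cells from mouse spleen, 3 in each of 4 groups. WT T cells and PERK-cKO T cells (PERK-KO in the labels) received one of 2 stimuli: allogeneic antigen-presenting cells (APCs), called allogeneic stimulation, or antibodies to CD3 and CD28, called polyclonal stimulation. PERK-cKO mice were on the C57BL/6 background and carried floxed alleles of Eif2ak3, the gene of the stress kinase PERK, with a Cre transgene under the Cd4 promoter, so that other cells of these mice keep PERK. By the deposited series description, polyclonal stimulation lasted 3 days and allogeneic stimulation 4 days, whereas a figure legend of the study gives 4 days for both. Where the description holds, the kind of stimulation and its length cannot be told apart. Neither the ages of the mice nor whether replicates came from separate mice or cultures is given in the sources used here, and p-values measure only the spread between these libraries.

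The respiratory chain sits in the inner mitochondrial membrane and couples electron transfer to ATP synthesis. Most of its subunits are made from nuclear genes, and a small core is made from chrM. Cytochrome b, the product of mt-Cytb, is the only chrM-encoded subunit of complex III and passes electrons toward cytochrome c. The products of mt-Co1, mt-Co2 and mt-Co3 form the core of complex IV, cytochrome c oxidase, in which the first and second carry the heme and copper centers that reduce oxygen. The products of mt-Atp6 and mt-Atp8 belong to the membrane part of complex V, the ATP synthase, and the mt-Atp6 product lines the path of the protons. The chromosome is transcribed as long precursors, which are cut mostly at the transfer RNAs between the genes, and the levels of the mature mRNAs then also depend on processing and decay. Activated T cells are known to expand their mitochondria and to raise both glycolysis and respiration.

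All 6 genes lie on the + strand of chrM, without introns, at positions that are the same in the annotation of the deposited table (GENCODE M27) and in GENCODE M21 on GRCm38. The entry for mt-Co1 (ENSMUSG00000064351.1) covers bases 5328 to 6872, that for mt-Co2 (ENSMUSG00000064354.1) bases 7013 to 7696 and that for mt-Co3 (ENSMUSG00000064358.1) bases 8607 to 9390. Between them lie mt-Atp8 (ENSMUSG00000064356.3) at bases 7766 to 7969 and mt-Atp6 (ENSMUSG00000064357.1) at bases 7927 to 8607, whereas mt-Cytb (ENSMUSG00000064370.1) lies far downstream at bases 14145 to 15288. The coding sequences of mt-Atp8 and mt-Atp6 share 43 bases in different reading frames, and mt-Atp6 and mt-Co3 share 1 base. The sequences are shown because these junctions, which hold no transfer RNA, bear on how read pairs were counted. Capitals mark the shared bases, and the sequences were read 5′ to 3′ from the transcripts of GENCODE M21 (GRCm38).
mt-Atp8, whole (bases 7766 to 7969): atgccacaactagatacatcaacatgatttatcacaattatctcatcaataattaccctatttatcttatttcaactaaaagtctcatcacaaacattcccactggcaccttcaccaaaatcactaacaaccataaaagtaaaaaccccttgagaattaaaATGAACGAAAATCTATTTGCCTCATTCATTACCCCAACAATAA
mt-Atp6, first 120 bases (7927 to 8046): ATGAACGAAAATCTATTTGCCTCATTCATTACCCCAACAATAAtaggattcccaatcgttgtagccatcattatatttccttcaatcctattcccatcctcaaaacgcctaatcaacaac
mt-Atp6, last 60 bases (8548 to 8607): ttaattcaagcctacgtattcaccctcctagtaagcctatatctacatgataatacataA
mt-Co3, first 60 bases (8607 to 8666): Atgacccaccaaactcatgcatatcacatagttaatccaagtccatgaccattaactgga

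The overlap limits the values of mt-Atp8. By the default of the counting program, a read pair that touched both mt-Atp8 and mt-Atp6 was given to neither, and strand was not used. Only 208 to 442 counts per library fell on the 204 bases of mt-Atp8. A second limit concerns near-identical nuclear copies of chrM. Of all 50-base words of each gene, 51.1% in mt-Co1, 100% in mt-Co2, 99.9% in mt-Co3 and 99.5% in mt-Atp6 also occurred without mismatch in transcripts of nuclear pseudogenes. These pseudogenes lie on chromosomes 1, 2, 11 and 18, and the value was 0% in mt-Cytb and mt-Atp8. Among the complex I genes of chrM it was 98.0% in mt-Nd3, 98.8% in mt-Nd4l and 62.2% in mt-Nd4. It was 8.19% in mt-Nd2, 7.61% in mt-Nd5 and 0% in mt-Nd1 and mt-Nd6. Pairs that align equally well in several places are left out by default, so the levels of the genes with copies depend on how the aligner, not given in the sources used here, treated the copies. The effect of either limit on the values was not tested.

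Total counts were 3132702 to 4631908 per library. The build in the processing notes (mm10) is not that of the annotation, so genes off chrM were read from placed counts, meaning entries whose positions overlay exons of exactly 1 GRCm38 gene by at least 50 bp, which held 55.3% of all counts. The overlap was short for some genes named below, 55 bp for Cox5a, 56 bp for Cd5 and 136 bp for Cyc1. It was 1410 bp for Uqcrc1 and 10265 bp for Nrf1, and a placed value need not stand for the whole gene. The libraries of WT T cells after allogeneic stimulation held 3335 to 4716 counts of Y-linked genes and the other 9 held 0, so that it cannot be told apart from the genotype after allogeneic stimulation or from the stimulation in WT T cells, and it enters the interaction between them. Placed Eif2ak3 was lower in PERK-cKO T cells by 0.49 on the log2 scale after allogeneic stimulation (log2 fold change −0.49, SE 0.14, edgeR quasi-likelihood test, Benjamini-Hochberg adjusted p = 0.00766), and its log2 fold change was −0.36 (SE 0.19, adjusted p = 0.169) after polyclonal stimulation. The summed level of 5 placed of 16 T cell markers was 5653 to 5756 CPM (counts scaled to the size of the library) in WT and 4968 to 5495 CPM in PERK-cKO after allogeneic stimulation. It was 4754 to 5064 in PERK-cKO after polyclonal stimulation and 3653 to 3818 in WT T cells after polyclonal stimulation. After allogeneic stimulation, Cd5 (−0.81), Lck (−0.53) and Zap70 (−0.36), 3 of 4 markers tested, were called lower in PERK-cKO, against 33.3% of 4313 placed genes called, and Thy1 was at 0.05. The largest part of this sum was Thy1, at 1908 to 2039 CPM in WT and 3046 to 3215 CPM in PERK-cKO polyclonal libraries. Lck was at 802 to 889 and 968 to 1073 CPM and Cd8b1 at 1.90 to 7.74 and 13.2 to 21.3 CPM in the same order. Between these groups edgeR called 3 of the 5 markers higher in PERK-cKO and 1 lower, against 31.7% of 4128 placed genes called, so not all markers moved together. Cd5 was instead highest in WT T cells after polyclonal stimulation (502 to 546 CPM, against 349 to 365 CPM in the PERK-cKO group beside it and 145 to 283 CPM after allogeneic stimulation), and Zap70 had a log2 fold change of 0.05 between the genotypes there. Scaling to T cell markers, used below, rests on this sum. The 4 placed of 6 mast cell and basophil markers summed to 2388 to 2561 CPM in PERK-cKO after allogeneic stimulation, 110 to 122 in the WT group beside it and at most 21.9 after polyclonal stimulation. The 3 placed of 12 macrophage and monocyte markers summed to 1461 to 1649, 213 to 246 and at most 126 CPM in the same order, and the 2 placed of 10 B cell markers to 176 to 203, 82.1 to 108 and at most 19.7. The defining markers Lyz2 and Prss34 were at 0 CPM in at least 1 WT library after polyclonal stimulation, the 1 placed of 5 NK cell markers reached 2.29 CPM at most, and none of 6 neutrophil markers was placed. The part of these other cells in the results below was not tested. In bulk samples, fewer cells of a type and less RNA per cell cannot be told apart. In WT T cells after polyclonal stimulation, replicate 1 stood apart, with mitochondrial ribosomal RNA at 15.8% of the counts of the 13 protein-coding entries against 3.99% to 6.99% in the other libraries. Its counts also differed from those of replicates 2 and 3 by a chi-square of 41.5 and 47.5 per entry, against 3.20 to 11.9 for the other pairs of replicates.

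Together the members held 6.03% to 9.87% of all counts of a library and 67.1% to 74.4% of the counts of the 13 chrM protein-coding entries, of which mt-Atp8 had the small part given above. Scaling to these 13 entries, used below, therefore takes out by construction much of any change that the members share. Per length, the levels spanned a wide range (plot of levels per kb). In CPM per kb of gene, mt-Co1 had a median of 31339 over the 12 libraries (lowest 23684, highest 36488), mt-Co2 11213 (8317 to 14795) and mt-Atp6 10491 (6533 to 13077). The medians were 9552 CPM per kb for mt-Cytb (5100 to 12852), 9010 for mt-Co3 (5541 to 11885) and 396 for mt-Atp8 (300 to 533). The complex IV gene mt-Co1 was thus above, and the complex V gene mt-Atp8 below, each of the other members in 12 of 12 libraries, and neither range overlapped with the next. The level per kb of mt-Co1 was a median 2.64-fold that of mt-Co2 (2.25 to 3.30), and that of mt-Co3 was 19.4-fold that of mt-Atp8 (16.6 to 25.2). The 4 genes between them did not separate beyond their spread: mt-Co2 exceeded mt-Atp6 in 11 of 12 libraries, mt-Atp6 exceeded mt-Cytb in 8, and mt-Cytb exceeded mt-Co3 in 9.

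**Figure D1:**
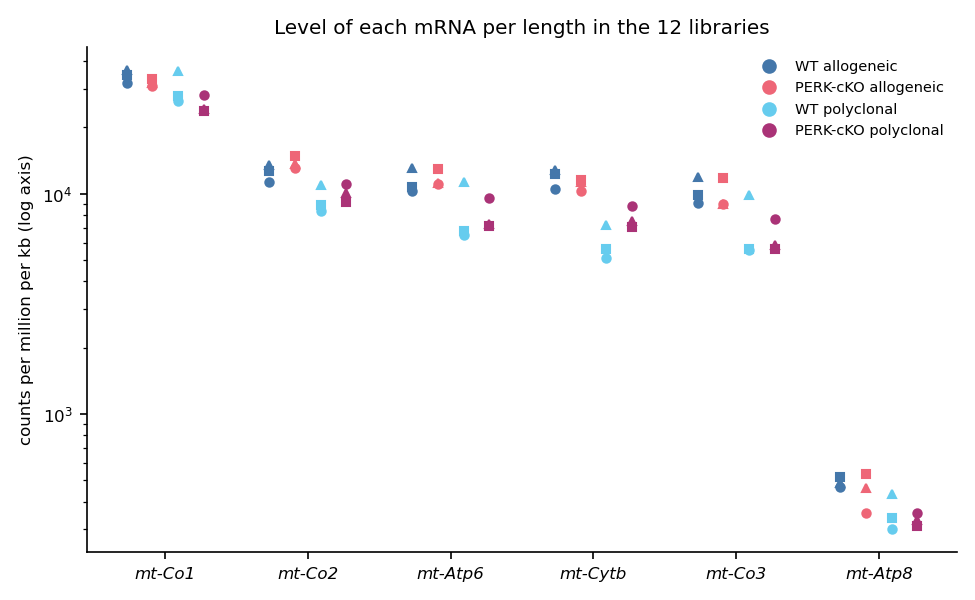
Level of each member in CPM per kb (log axis) in the 12 libraries, colored by group, with circles, squares and triangles for replicates 1, 2 and 3. The points of mt-Co1 lie at 23684 and above and those of mt-Atp8 at 533 and below, and the other members overlap between 5100 and 14795.

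Each member was next followed across the groups in CPM scaled by the trimmed mean of M values (TMM), over all 12 libraries. The level of mt-Cytb was 11798, 14548 and 15428 CPM in WT and 11957, 13761 and 13083 CPM in PERK-cKO after allogeneic stimulation (replicates 1, 2 and 3). It was 6352, 5904 and 8267 CPM in WT and 10237, 7921 and 8058 CPM in PERK-cKO after polyclonal stimulation. Every library of allogeneic stimulation was above every library of polyclonal stimulation, and the genotypes overlapped within each stimulation, although only WT replicate 3 reached into the PERK-cKO range after polyclonal stimulation.

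For mt-Co1, the catalytic subunit of complex IV, the levels were 48262, 55237 and 59153 CPM in WT and 48294, 53837 and 50102 CPM in PERK-cKO after allogeneic stimulation. With polyclonal stimulation the levels were 44483, 39777 and 55685 CPM in WT and 44443, 35696 and 35130 CPM in PERK-cKO T cells. The WT groups overlapped because of the high WT replicate 3 after polyclonal stimulation, whereas the PERK-cKO groups did not. The level of mt-Co2, which carries the copper center that receives the electrons, was 7626, 8994 and 9732 CPM in WT and 9057, 10575 and 9450 CPM in PERK-cKO after allogeneic stimulation. After polyclonal stimulation it was 6194, 5612 and 7472 CPM in WT and 7719, 6104 and 6437 CPM in PERK-cKO T cells. The kinds of stimulation did not overlap within either genotype, though in WT the lowest allogeneic library and the highest polyclonal library were close.

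The level of mt-Co3, a core subunit without a metal center, was 6975, 7989 and 9777 CPM in WT and 7138, 9689 and 7182 CPM in PERK-cKO after allogeneic stimulation. It was 4730, 4046 and 7769 CPM in WT and 6119, 4317 and 4291 CPM in PERK-cKO after polyclonal stimulation. Its spread within groups was wide, with WT replicate 3 after polyclonal stimulation inside the WT allogeneic range. For its neighbour mt-Atp6, the levels were 6853, 7541 and 9344 CPM in WT and 7619, 9203 and 7760 CPM in PERK-cKO after allogeneic stimulation. They were 4844, 4246 and 7741 CPM in WT and 6639, 4756 and 4662 CPM in PERK-cKO after polyclonal stimulation. The libraries high or low for mt-Co3 within a group were mostly also those high or low for mt-Atp6, and mt-Atp6 had 0.944 to 1.10 counts per mt-Co3 count over the 12 libraries. The level of mt-Atp8 was 93.7, 109 and 105 CPM in WT and 73.7, 114 and 95.8 CPM in PERK-cKO after allogeneic stimulation. It was 66.5, 63.5 and 88.6 CPM in WT and 73.7, 62.0 and 63.1 CPM in PERK-cKO after polyclonal stimulation. The genotypes overlapped within each stimulation, and the lowest PERK-cKO allogeneic library was level with the highest PERK-cKO polyclonal library.

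**Figure D2:**
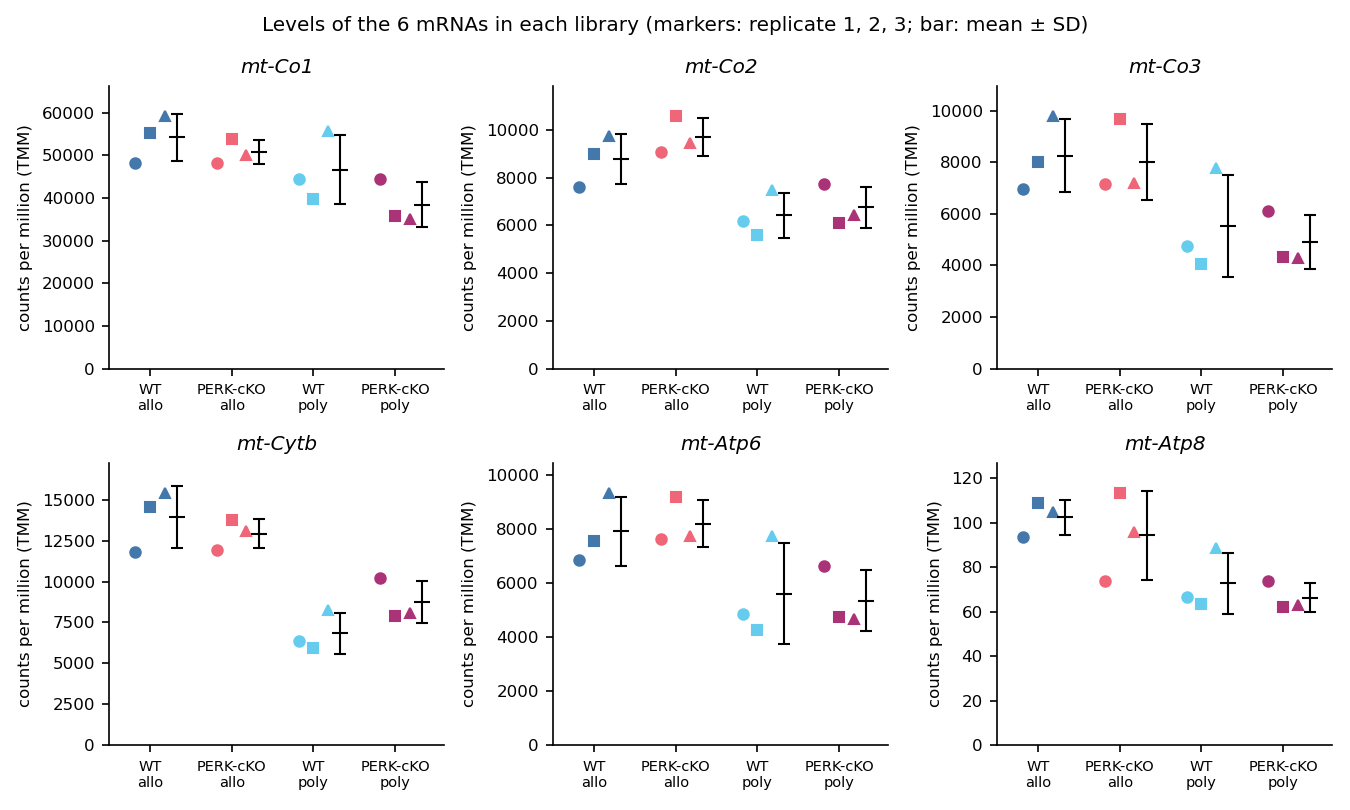
TMM-scaled CPM of the 6 members in each library by group (circles, squares and triangles for replicates 1, 2 and 3), with the mean ± SD of each group as a black bar (n = 3). In mt-Cytb the 6 allogeneic libraries lie at 11798 CPM and above and the 6 polyclonal ones at 10237 CPM and below, and the genotypes overlap in each panel.

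To ask whether loss of PERK changed the members after allogeneic stimulation, the genotypes were compared with edgeR's quasi-likelihood test. None of the 6 was called at a Benjamini-Hochberg adjusted p under 0.05, against 28.9% of the 9467 entries tested, 0 had an unadjusted p under 0.05, and DESeq2 called 0. The largest log2 fold change of PERK-cKO against WT was 0.14 for mt-Co2 (95% interval −0.06 to 0.34, adjusted p = 0.323, edgeR). For mt-Cytb it was −0.11 (95% interval −0.31 to 0.09) and for mt-Co1 −0.10 (−0.29 to 0.08), with means of 13925 ± 1893 CPM (SD, n = 3) in WT and 12934 ± 911 CPM in PERK-cKO T cells for mt-Cytb. The intervals of mt-Co3, mt-Atp6 and mt-Atp8 ran from −0.39 at the lowest to 0.26 at the highest, so changes of about that size could not be seen. The median log2 fold change was −0.07 over the members and 0.00 over all entries tested.

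The other chrM genes give the comparison for these values. Among the 7 complex I genes of chrM, whose products take electrons from NADH, 5 were lower in PERK-cKO after allogeneic stimulation, against 12.2% of all entries lower, with log2 fold changes from −0.47 in mt-Nd2 (adjusted p = 0.000384, edgeR) to −0.25 in mt-Nd6 (adjusted p = 0.0286). The other two, mt-Nd1 and mt-Nd3, had log2 fold changes of −0.17 and −0.16. The median of the 7 was −0.27, and with scaling to T cell markers the 7 values ran from −0.36 to −0.04, with mt-Nd2, mt-Nd5 and mt-Nd4l still called and mt-Nd4 (−0.16) and mt-Nd6 (−0.14) no longer. Scaled to the 13 chrM entries, mt-Nd2 and mt-Nd5 were the 2 still called. The call of mt-Nd4 was lost without WT allogeneic replicate 2 or 3 or PERK-cKO allogeneic replicate 1, and that of mt-Nd6 without WT allogeneic replicate 2 or PERK-cKO allogeneic replicate 1 or 3. With library scaling to the 13 chrM entries, the log2 fold changes of mt-Co1, mt-Co3 and mt-Cytb were 0.03, 0.08 and 0.02 and that of mt-Co2 was 0.27, the 1 member then called.

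After polyclonal stimulation, mt-Cytb was higher in PERK-cKO than in WT T cells and was the only member called, a call that ended with scaling to T cell markers or to the 13 chrM entries. Scaling to T cell markers gave it a log2 fold change of −0.01 beside a median of −0.38 over all entries, and 4 other members were then called lower, mt-Co1 (−0.64), mt-Co3 (−0.53), mt-Atp8 (−0.49) and mt-Co2 (−0.29), where 4054 of 9328 entries were called and 283 of these were higher. Scaled to the 13 chrM entries, 0 of 6 were called and mt-Cytb was at 0.41 (adjusted p = 0.0662, edgeR). Its level rose from 6841 ± 1255 CPM in WT to 8739 ± 1299 CPM (SD, n = 3) in PERK-cKO T cells, 1.29-fold (log2 fold change 0.37, SE 0.118, 95% interval 0.12 to 0.62, adjusted p = 0.0262, edgeR). The 1 call of 6 compares with 29.5% of 9328 entries called in either direction and 15% called higher. The log2 fold change of mt-Co1 was −0.26 (95% interval −0.50 to −0.03), with an unadjusted p under 0.05 and an adjusted p of 0.0882 (edgeR). Those of mt-Co2, mt-Co3, mt-Atp6 and mt-Atp8 were 0.09, −0.15, −0.05 and −0.11, none called with TMM, and the interval of mt-Co3 was −0.53 to 0.24. The median over the members was −0.08, against −0.00 over all entries tested. Of the 7 complex I genes, edgeR called 0, with log2 fold changes from −0.10 to 0.26 and 1 at an unadjusted p under 0.05, and with scaling to T cell markers mt-Nd5 (−0.34) and mt-Nd6 (−0.48) were called lower. The mt-Cytb call depended on single libraries: its log2 fold change was 0.30 without WT replicate 1 (the library with the high ribosomal RNA), 0.28 without WT replicate 2 and 0.23 without PERK-cKO replicate 1, none of them called. In the last 2 of these fits mt-Co1 was called lower, at −0.36 and −0.39.

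Allogeneic and polyclonal stimulation were compared within each genotype, in the same libraries, so that these comparisons and those of the genotypes are not independent. In WT T cells, 5 of 6 members were higher after allogeneic stimulation, against 46.6% of 9320 entries called in either direction and 23.4% called higher, whereas with scaling to T cell markers, which called 6304 entries, 617 of them higher, only mt-Cytb was called higher and the other 5 had log2 fold changes from −0.38 to −0.01 beside a median of −0.62 over all entries. The increase was 2.05-fold for mt-Cytb (log2 fold change 1.03, SE 0.119, adjusted p = 1.8e-06, edgeR), from 6841 ± 1255 to 13925 ± 1893 CPM. It was 1.51-fold for mt-Co3, 1.42-fold for mt-Atp6, 1.42-fold for mt-Atp8 and 1.38-fold for mt-Co2, with adjusted p from 0.0021 to 0.0164. For mt-Co1 the log2 fold change was 0.23 (95% interval −0.00 to 0.45, adjusted p = 0.0959, edgeR). The median over the members was 0.51, against −0.02 over all entries, and all 7 complex I genes were higher, with log2 fold changes from 0.61 to 1.02, or from 0.01 to 0.42 with scaling to T cell markers, when mt-Nd1 and mt-Nd3 alone of the 7 were still called. Scaled to the 13 chrM entries, which takes out much of a shared change of the members, mt-Cytb was the 1 member still called. With this scaling mt-Co1, mt-Co2 and mt-Atp8 had log2 fold changes of −0.29, −0.06 and −0.01. Without WT allogeneic replicate 3, mt-Atp6 (0.39) and mt-Co3 (0.47) were not called, and mt-Atp6 was not called without WT polyclonal replicate 1 (0.42) or 2 (0.34). In contrast, mt-Co1 was called without WT allogeneic replicate 1 (0.32) or WT polyclonal replicate 3 (0.37), in the fit with a replicate block (0.23) and in the fit without a filter on low counts (0.25). DESeq2 called 3 of 6, without mt-Atp6 and mt-Co3.

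In PERK-cKO T cells, 6 of 6 members were higher after allogeneic stimulation, against 46.2% of 9695 entries called in either direction and 25.5% called higher. Scaling to T cell markers kept the 6 calls. Scaling to the 13 chrM entries, most of whose counts are the members' own, takes out by construction much of a change that they share. It ended 5 of the calls, with mt-Co3 (0.26) still called and mt-Co1 at −0.04. A fold of at least 1.5 was met by 2 members, mt-Co3 and mt-Atp6. The increases were 1.63-fold for mt-Co3, 1.53-fold for mt-Atp6, 1.48-fold for mt-Cytb, 1.43-fold for mt-Co2, 1.41-fold for mt-Atp8 and 1.32-fold for mt-Co1, with adjusted p from 0.000135 to 0.0049 (edgeR). No fit that left out a library lost any of the 6. The median log2 fold change was 0.54, against −0.00 over all entries, and 4 of the 7 complex I genes were higher, mt-Nd1, mt-Nd3, mt-Nd4 and mt-Nd6, none of which was called with scaling to the 13 chrM entries (mt-Nd4 at −0.09). The log2 fold change of mt-Nd2, a complex I gene, was −0.05.

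The genotype by stimulation interaction asks whether the effect of the genotype differed between the kinds of stimulation. It was called for mt-Cytb alone among the members, 1 of 6, against 29% of 10454 entries in either direction and 13.1% called lower. With scaling to T cell markers its value was 0.02 beside a median of 0.53 over all entries, and mt-Co1 (0.66), mt-Atp6 (0.59) and mt-Co2 (0.54) were called higher instead, where 3989 of 10454 entries were called and 3647 of these were higher. Scaling to the 13 chrM entries (mt-Cytb at −0.39), the filter on at least 10 counts in every library and a fold of at least 1.5 each left 0 members called. The difference of its log2 fold changes was −0.46 (SE 0.167, 95% interval −0.81 to −0.11, adjusted p = 0.0409, edgeR): the log2 fold change of PERK-cKO against WT was −0.11 after allogeneic and 0.37 after polyclonal stimulation. The values of mt-Co1, mt-Co2, mt-Co3, mt-Atp6 and mt-Atp8 were 0.18, 0.07, 0.12, 0.12 and 0.01, none called with TMM, with intervals as wide as −0.39 to 0.64 for mt-Co3. The median over the members was 0.09, close to the 0.07 over all entries. Of the 7 complex I genes, 4 were called lower, with values from −0.70 in mt-Nd2 to −0.42 in mt-Nd4, and with scaling to T cell markers none of the 4 was called, mt-Nd4 and mt-Nd5 were at 0.06 and 0.04, and mt-Nd6 was called higher (0.34). For mt-Cytb the call was lost in 7 of 12 fits that left out 1 library, with values from −0.66 to −0.37 over the 12. These were the fits without WT allogeneic replicate 2 (−0.44) or 3 (−0.43), PERK-cKO allogeneic replicate 1 (−0.42) or 3 (−0.48), WT polyclonal replicate 1 (−0.44) or 2 (−0.38), or PERK-cKO polyclonal replicate 1 (−0.37).

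**Figure D3:**
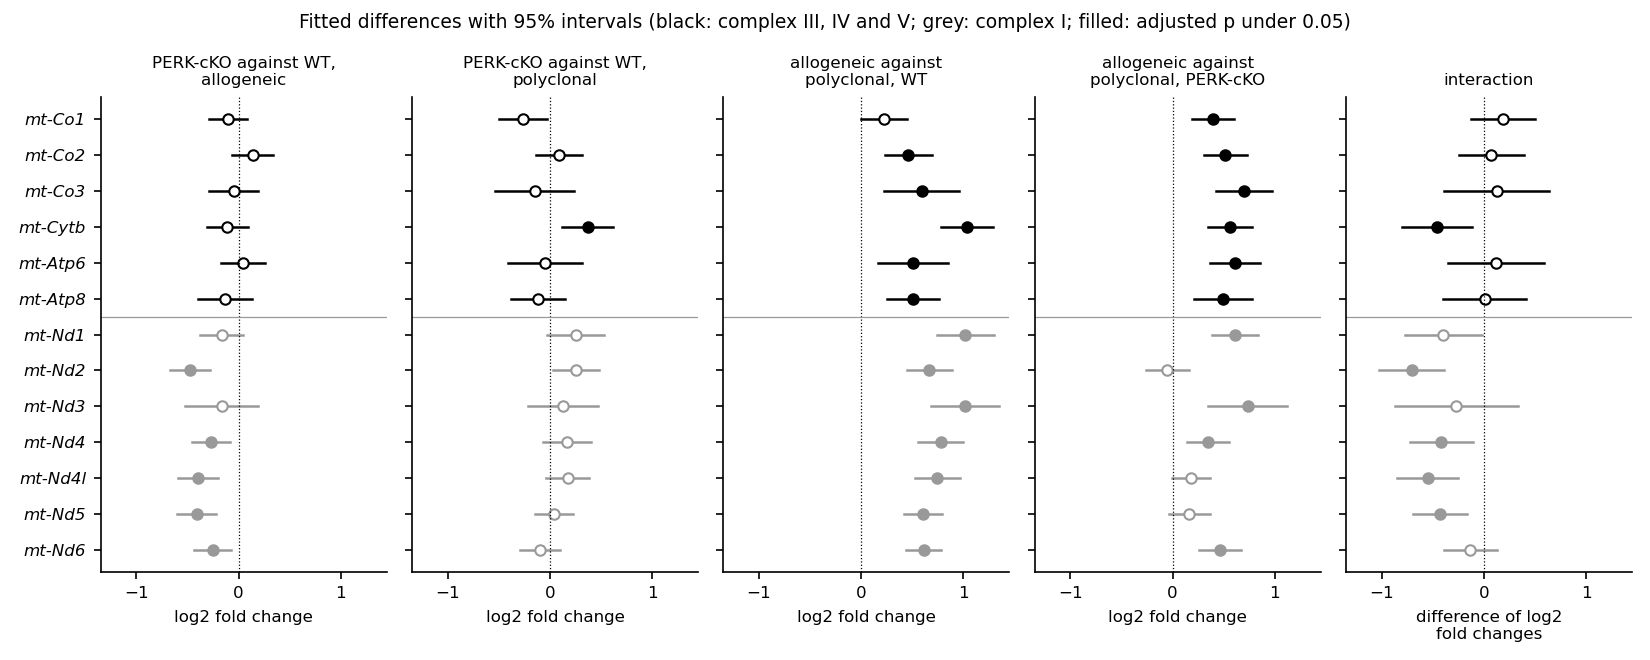
Fitted log2 fold changes with 95% intervals (edgeR, TMM) for the 6 members (black) and the 7 complex I genes of chrM (grey) in the 4 comparisons and for the interaction, with filled points called at an adjusted p under 0.05. With scaling to T cell markers the mt-Cytb values of 0.37 and −0.46 were −0.01 and 0.02, and in WT the filled members other than mt-Cytb were below 0.

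The members were also read against each other, as shares of the counts of the 13 protein-coding entries, which do not depend on how the libraries are scaled. In WT T cells after polyclonal stimulation, mt-Co1 made up 49.0%, 48.4% and 47.6% of these counts, and mt-Cytb 7.0%, 7.19% and 7.07%. In the other 9 libraries, mt-Co1 held 39.2% to 42.1% and mt-Cytb 9.34% to 10.6%. The WT polyclonal group was thus apart from the other groups in both genes, with mt-Co1 high and mt-Cytb low in each of its 3 libraries. The complex I gene mt-Nd1 was low there too, at 7.39% to 7.82% against 9.06% to 11.2% in the other 9 libraries.

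The share of mt-Co1 was lower by 6.77 percentage points in PERK-cKO than in WT T cells after polyclonal stimulation (41.6% ± 0.458 against 48.4% ± 0.694, SD, n = 3; difference −6.77) and differed by 0.85 points after allogeneic stimulation (exact permutation test, two-sided, p = 0.1 and 0.2). That of mt-Cytb was higher by 2.36 points after polyclonal stimulation (9.45% ± 0.0892 against 7.09% ± 0.0984) and differed by 0.16 points after allogeneic stimulation (exact p = 0.1 and 0.6). With 3 libraries against 3, the exact test cannot give a p below 0.1, and the Benjamini-Hochberg adjusted p over the 24 comparisons of shares was 0.2 for those that reached it. Between the kinds of stimulation in WT T cells, the share of mt-Co1 differed by −8.78 points and that of mt-Cytb by 3.05 points, and in PERK-cKO T cells by −1.16 and 0.85 points (exact p = 0.1 in each, allogeneic minus polyclonal).

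The ratio of the members at the ends of this pattern needs no scaling or denominator. There were 7.0, 6.74 and 6.74 mt-Co1 counts per mt-Cytb count in WT T cells after polyclonal stimulation. In the PERK-cKO group after polyclonal stimulation there were 4.34, 4.51 and 4.36. After allogeneic stimulation the ratios were 4.09, 3.8 and 3.83 in WT and 4.04, 3.91 and 3.83 in PERK-cKO T cells. The 3 WT polyclonal libraries were above all others, also with replicate 1 and its high ribosomal RNA set aside, the PERK-cKO polyclonal libraries came next, and the allogeneic libraries of both genotypes overlapped at the lowest ratios. The WT polyclonal group was also that with the lowest T cell marker sum, carried by Thy1, and the highest Cd5, and the part of either in the ratio was not tested.

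**Figure D4:**
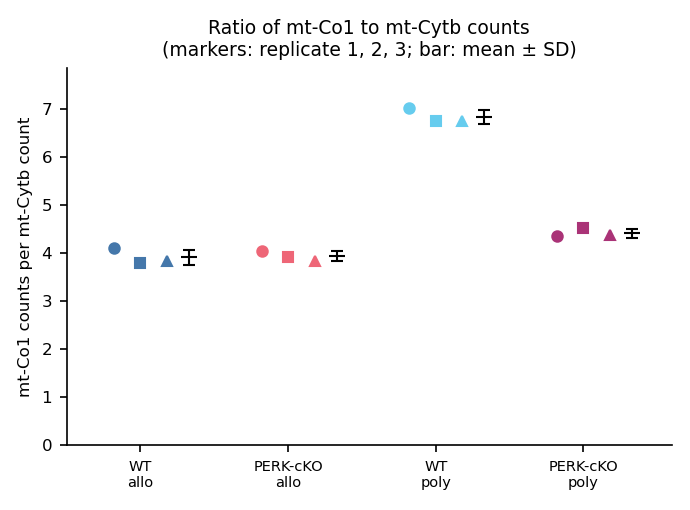
Counts of mt-Co1 per count of mt-Cytb in each library by group (circles, squares and triangles for replicates 1, 2 and 3), with the mean ± SD as a black bar (n = 3). The 3 WT polyclonal libraries sit at 6.74 to 7.0, and the other 9 at 3.8 to 4.51.

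The share of mt-Co2 separated the genotypes after both kinds of stimulation, and in PERK-cKO also the kinds of stimulation. It was 6.32%, 6.39% and 6.49% in WT and 7.73%, 7.77% and 7.64% in PERK-cKO after allogeneic stimulation, and 6.82%, 6.83% and 6.39% in WT and 7.17%, 7.20% and 7.58% in PERK-cKO after polyclonal stimulation. PERK-cKO libraries were above WT libraries in both, by 1.31 and 0.63 points, without overlap (exact p = 0.1 for each, the smallest possible). Within PERK-cKO the allogeneic libraries were above the polyclonal ones by 0.40 points, also without overlap (exact p = 0.1). The WT groups overlapped (−0.28 points, exact p = 0.3). The share of mt-Atp6 was 6.27% to 6.76% in PERK-cKO and 5.36% to 6.23% in WT T cells after allogeneic stimulation (difference 0.75 points, exact p = 0.1), and after polyclonal stimulation the genotypes overlapped (5.49% to 6.16% against 5.17% to 6.62%, exact p = 1). For mt-Co3 the genotypes overlapped in both, at 5.68% to 6.52% in WT and 5.80% to 7.12% in PERK-cKO after allogeneic stimulation and 4.93% to 6.64% and 5.05% to 5.68% after polyclonal stimulation. For mt-Atp8 the share was between 0.0629% and 0.0834% in all libraries, with overlap in each comparison.

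**Figure D5:**
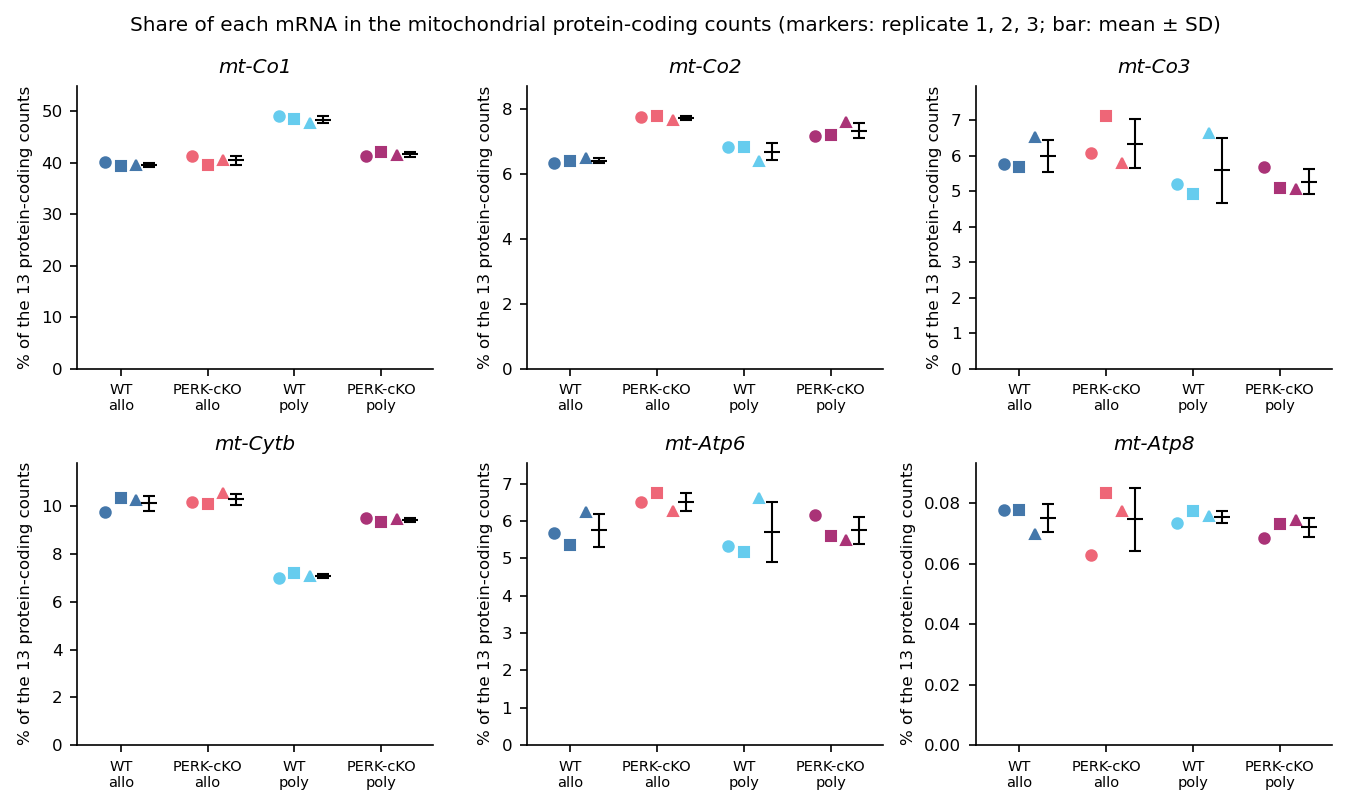
Share of each member in the counts of the 13 chrM protein-coding entries, in percent, in each library by group, with the mean ± SD of each group as a black bar (n = 3). WT polyclonal libraries stand at 47.6% to 49.0% for mt-Co1 and 7.0% to 7.19% for mt-Cytb, apart from the other groups, and the genotypes are apart in mt-Co2.

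As a sum, the 6 members held 9.11% ± 0.780 of all counts in WT and 8.75% ± 0.504 in PERK-cKO after allogeneic stimulation, and 7.10% ± 1.40 and 6.56% ± 0.722 after polyclonal stimulation (SD, n = 3). The genotypes differed by −0.36 and −0.54 percentage points, less than the spread between libraries (exact permutation test, two-sided, p = 0.7 and 0.6). Allogeneic stimulation was higher by 2.01 points in WT (exact p = 0.2) and by 2.19 points in PERK-cKO T cells (exact p = 0.1, adjusted p = 0.4 over 4 comparisons). The WT polyclonal group ranged from 6.12% to 8.70% and overlapped with the WT allogeneic group, whereas the PERK-cKO groups did not overlap.

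Genes whose levels moved most like the summed members were sought by the root mean square difference of centered log2 CPM over the 12 libraries, among 2408 entries with a mean log2 CPM of at least 5. The 5 closest were the nuclear genes AC115302.1 (0.0853), Pnrc2 (0.0882), Esco1 (0.0955), Commd4 (0.10) and Hsdl2 (0.106), against a median of 0.395 over all entries considered and 0.282 for a flat profile. Of the members themselves, mt-Co1 was at 0.0842 from the sum, mt-Co2 at 0.111, mt-Atp8 at 0.112, mt-Atp6 at 0.124, mt-Co3 at 0.162 and mt-Cytb at 0.253. The sum holds the counts of mt-Co1 in large part, so its nearness is fixed by construction, and mt-Cytb was the member farthest from the sum.

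The nuclear genes of the same complexes were read from placed counts, which hold few of them, and some only by a short overlap (55 bp for Cox5a and 136 bp for Cyc1). Of 9 nuclear complex III subunits 3 were tested, of 11 complex IV subunits 2, of 17 complex V subunits 1 and of 27 assembly factors 4, and 8 or 9 of 28 genes for mitochondrial transcription and RNA handling. After allogeneic stimulation edgeR called none of the subunits or assembly factors between the genotypes, against 33.3% of 4313 placed genes, with 0 at an unadjusted p under 0.05 and 0 by DESeq2. After polyclonal stimulation, against 31.7% of 4128 placed genes called, 2 of 3 complex III subunits, 1 of 2 complex IV subunits and 1 of 4 assembly factors were higher in PERK-cKO T cells. Without WT polyclonal replicate 2, the second complex IV subunit was called lower and 2 assembly factors were called higher. The levels of Uqcrc1, a core subunit of complex III, were 559, 644 and 603 CPM in WT and 893, 878 and 840 CPM in PERK-cKO after polyclonal stimulation, without overlap (log2 fold change 0.51, adjusted p = 0.000205, edgeR). Those of Cyc1, the cytochrome c1 of complex III, were 109, 132 and 126 CPM in WT and 183, 165 and 171 CPM in PERK-cKO T cells (log2 fold change 0.49, adjusted p = 0.00185). The complex IV subunit Cox5a had a log2 fold change of 0.51 (adjusted p = 0.00153) and Cox10, an enzyme of the path to the heme A of complex IV, a log2 fold change of 0.68 (adjusted p = 0.000373). For Uqcrc2, another core subunit of complex III, it was 0.06, for the complex IV subunit Ndufa4 −0.68 and for the complex V subunit Atp5l −0.45, none called. With scaling to T cell markers the log2 fold changes of Uqcrc1, Cyc1, Cox5a and Cox10 were 0.14, 0.11, 0.13 and 0.30, and Cox10 alone of the 4 was still called. Scaled to the 13 chrM entries, Uqcrc1 (0.54) and Cox10 (0.70) were still called, and Cyc1 (0.51, adjusted p = 0.0988) and Cox5a (0.53, adjusted p = 0.0647, edgeR) were not. With T cell markers Ndufa4 (−1.06) and the assembly factor Cox19 (−0.69) were called lower, and Ndufa4 was also called lower when scaled to library size alone (−0.62, adjusted p = 0.031, edgeR).

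In the interaction, against 33.9% of 4612 placed genes called, Uqcrc1 (−0.61), Cyc1 (−0.55), Cox5a (−0.69) and Cox10 (−0.99) were lower on the log2 scale, with adjusted p of 0.000259, 0.0189, 0.000767 and 0.000228 (edgeR), whereas with scaling to T cell markers the values were −0.08, −0.03, −0.17 and −0.47, Cox10 alone of the 4 was called, and Ndufa4 (1.19) and Cox19 (0.93) were called higher. With the 13 chrM entries too, Cox10 (−0.85) alone of the 4 was called. Between the kinds of stimulation in WT T cells, against 48.4% of 4184 placed genes called, 1 of 3 complex III subunits was higher (Cyc1, 0.36) and 1 lower (Uqcrc2, −0.82), 1 of 2 complex IV subunits was higher (Cox5a, 0.39), and of 4 assembly factors 1 was higher (Cox10, 0.37) and 1 lower (Cox19, −0.53). In PERK-cKO T cells, against 51.2% of 4365 placed genes called, 2 of 3 complex III subunits were lower (Uqcrc1, −0.38, and Uqcrc2, −1.14), and Cox5a (−0.26) and Cox10 (−0.58) were lower and Ndufa4 higher (0.69). With 1 library left out, 0 to 2 complex IV subunits were called in PERK-cKO T cells, 0 of them without PERK-cKO polyclonal replicate 2. In WT T cells the fits called 0 to 2 assembly factors, with 0 without WT allogeneic replicate 2 or WT polyclonal replicate 1 or 3. In WT T cells with scaling to T cell markers, the values of Cyc1, Cox5a and Cox10 were −0.23, −0.19 and −0.21, and those of Uqcrc2 and Cox19 stayed below 0.

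Among the genes for mitochondrial transcription and RNA handling, Nrf1, a nuclear transcription factor for respiratory genes, was lower in PERK-cKO after allogeneic stimulation (log2 fold change −0.35, adjusted p = 0.00341, edgeR), the only gene of 9 tested that was called, against 33.3% of placed genes. After polyclonal stimulation Nrf1 was higher (0.55, adjusted p = 0.000116) and Hsd17b10, a subunit of the mitochondrial RNase P, lower (−0.53, adjusted p = 0.00216), and the other 6 of 8 tested were not called, against 31.7% of placed genes called. With scaling to T cell markers Nrf1 was not called in either (−0.22 and 0.17), and with the 13 chrM entries Hsd17b10 was not called (−0.51, adjusted p = 0.0769, edgeR). The levels of Nrf1 were 644, 727 and 633 CPM in WT and 543, 514 and 510 CPM in PERK-cKO after allogeneic stimulation, and 330, 331 and 349 CPM in WT and 491, 479 and 521 CPM in PERK-cKO after polyclonal stimulation. The WT polyclonal libraries were the lowest and the WT allogeneic libraries the highest, without overlap between any of the 4 groups except within PERK-cKO. Between the kinds of stimulation, 1 of 9 was higher (Nrf1, 0.95) and 4 lower in WT T cells, and 5 of 8 were lower in PERK-cKO T cells, in which Nrf1 had a log2 fold change of 0.07. These counts stand against 48.4% and 51.2% of placed genes called. With 1 library left out they were 3 to 5 in WT T cells, with 3 without WT allogeneic replicate 1 or WT polyclonal replicate 1, and 3 to 4 in PERK-cKO T cells, with 3 without PERK-cKO allogeneic replicate 2. The genes lower in both included Pnpt1, the mitochondrial RNA-degrading enzyme (−0.65 and −0.75), and Polg, the mitochondrial DNA polymerase (−0.72 and −0.54). The call of Polg was lost in WT without allogeneic or polyclonal replicate 1, and in PERK-cKO without allogeneic replicate 1 or 2 or polyclonal replicate 2 or 3.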

How the data were processed

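The authors deposited raw counts of read pairs for 12 libraries, made with featureCounts 2.0.1 on the exons of GENCODE M27, summed per gene symbol. Per the labels, RNA was extracted with TRIZOL, fragmented and primed with random hexamers. The aligner is not given in the sources used here, and the build in the processing notes is mm10. The deposited counts are not normalized, and the study names DESeq2 for its own later analysis.

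Each comparison was fitted on the entries as listed, with the 6 libraries of its groups (12 for the interaction), in R 4.3.3 with edgeR 4.0.16 (filterByExpr, TMM, glmQLFit, glmQLFTest), and entries with a Benjamini-Hochberg adjusted p under 0.05 over all entries tested were called. All 6 members passed the filter in each fit. Placed counts were fitted in the same way. Shares were compared with exact permutation tests (Python 3.11.15). The scripts were checked on simulated counts. Alternatives were DESeq2 1.42.0, other scalings, filters, a fold of at least 1.5, a replicate block and each library left out. Members, lists and tests were chosen with earlier results of these data known. The named genes were the members, Eif2ak3, the defining markers above, the 4 tested genes of each list with the highest level and, for complex I of chrM, genes at the ends of a range, chosen after their values were seen. A count of 0 allows up to 3 counts, which covers counting error only.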

Additional observations from a re-analysis of the deposited data

Results flagged for a closer look

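The genotype difference of mt-Cytb stood out because it differed between the kinds of stimulation by a direct test, the interaction term. The value was −0.46 on the log2 scale (SE 0.167, edgeR quasi-likelihood test, Benjamini-Hochberg adjusted p = 0.0409, n = 3 libraries per group): −0.11 after allogeneic and 0.37 after polyclonal stimulation. This was 1 call among 6 members, against 29% of all 10454 entries, and 4 of 7 complex I genes of chrM were called in the same direction, mt-Nd2 at −0.70. The mt-Cytb call was lost in 7 of 12 fits that left out 1 library, and with scaling to T cell markers the value was 0.015. The T cell marker sum, of which Thy1 was the largest part, was lowest in the WT polyclonal group, whereas the marker Cd5 was highest there. Y-linked counts were above 0 in the WT allogeneic group only. The part of these in the difference was not tested. WT polyclonal replicate 1 stood apart from the other replicates of its group, and without it the mt-Cytb interaction was −0.44 and not called.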

How the results depend on the processing

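The calls of the members depended most on 2 scalings, to the 13 chrM protein-coding entries and to T cell markers. RLE factors, library size alone and a scale off chrM left the number of members called in each comparison as in the main fit. The members hold 67.1% to 74.4% of the counts of the 13 entries, so that scaling takes out by construction much of a change they share. Scaled to the 13 chrM protein-coding entries, which shifted the median of all entries by 0.13, 0.032, −0.53, −0.44 and 0.074 (log2), the members called were 1 after allogeneic and 0 after polyclonal stimulation between the genotypes, 1 in WT and 1 in PERK-cKO T cells between the stimulations, and 0 for the interaction. Scaled to T cell markers, with shifts of 0.11, −0.37, −0.60, −0.12 and 0.46 in the same order, they were 4, all lower, after polyclonal stimulation, 2 (mt-Cytb higher, mt-Co1 lower) in WT T cells and 3, all higher, for the interaction, beside 4054 (283 higher), 6304 (617 higher) and 3989 (3647 higher) of all entries called. DESeq2 called 3 in WT T cells, the fit without a filter 2 after polyclonal stimulation and 6 in WT T cells, and the filter on at least 10 counts in every library 0 for the interaction. A fold of at least 1.5 left 0 after polyclonal stimulation, 2 in WT and 2 in PERK-cKO T cells and 0 for the interaction. Leaving out 1 library gave 0 to 1 after polyclonal stimulation, 3 to 6 in WT T cells and 0 to 1 for the interaction. Beyond what the scaling to the 13 entries takes out by construction, the cause of these changes was not tested.

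Single values changed sign under these scalings. With 13 chrM entries they were 0.030 (mt-Co1), 0.080 (mt-Co3) and 0.022 (mt-Cytb) after allogeneic stimulation, 0.012 (mt-Atp6) after polyclonal stimulation, −0.29 (mt-Co1), −0.062 (mt-Co2) and −0.0084 (mt-Atp8) in WT and −0.041 (mt-Co1) in PERK-cKO T cells. With T cell markers they were 0.014 (mt-Co1), 0.067 (mt-Co3) and 0.0051 (mt-Cytb) after allogeneic stimulation, −0.29 (mt-Co2) and −0.010 (mt-Cytb) after polyclonal stimulation, −0.38 (mt-Co1), −0.14 (mt-Co2), −0.096 (mt-Atp8), −0.098 (mt-Atp6) and −0.014 (mt-Co3) in WT T cells and 0.015 for the mt-Cytb interaction. The mt-Atp8 interaction, 0.01, was −0.017 by DESeq2, −0.0058 with RLE factors, −0.026 by library size, −0.0040 with a scale off chrM, −0.055 without a filter, −0.055 on placed counts and −0.0059 with the replicate block. The share of mt-Atp8 between the stimulations in WT T cells differed by 0.00187 points with ribosomal RNA in the denominator. With 1 library left out, values ranged after allogeneic stimulation from −0.29 to 0.022 (mt-Atp8), −0.069 to 0.18 (mt-Atp6) and −0.21 to 0.086 (mt-Co3), and after polyclonal stimulation from −0.027 to 0.19 (mt-Co2), −0.21 to 0.029 (mt-Atp8), −0.24 to 0.23 (mt-Atp6) and −0.35 to 0.16 (mt-Co3). For the interaction they ranged from −0.0021 to 0.27 (mt-Co1), −0.092 to 0.14 (mt-Co2), −0.20 to 0.15 (mt-Atp8), −0.23 to 0.27 (mt-Atp6) and −0.25 to 0.29 (mt-Co3).

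No pairing by replicate number was seen: same-numbered libraries had correlations of −0.0635 to 0.0634 in their deviations from group means. Such values cannot tell whether same-numbered libraries shared mice or cultures. With a replicate block the members called were 0, 1, 6, 6 and 1 in the order above, so only mt-Co1 in WT T cells changed its call. Over all entries, the counts called after polyclonal stimulation were 2750, 1056 scaled to the 13 chrM entries, 1416 with the fold and 1307 on placed counts. The interaction gave 3034, 1656 scaled to the 13 chrM entries and 1564 on placed counts. Placed counts gave 1437, 2027 and 2234 in the allogeneic, WT and PERK-cKO comparisons, where fewer entries were tested, and the fold left 1778 of 2734 in the first.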

Other observations

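The ribosomal RNAs of chrM, which belong to the same chromosome but lie outside the 13 protein-coding entries, were read beside the members. In PERK-cKO against WT T cells after allogeneic stimulation, mt-Rnr1 was higher (log2 fold change 0.59, SE 0.113, adjusted p = 0.000202, edgeR) and mt-Rnr2 was at 0.05 (adjusted p = 0.806). After polyclonal stimulation the values were −0.55 and −0.66, neither called, and they turned to 0.15 and 0.14 without WT polyclonal replicate 1. That library held 5120 CPM of mt-Rnr1 and 9189 CPM of mt-Rnr2, against 1488 and 2027 CPM and 2024 and 3585 CPM in the other WT polyclonal libraries. The interaction was called for mt-Rnr1 (1.16, adjusted p = 0.0234, edgeR), and without this library it was 0.41 (adjusted p = 0.22). Its call was also lost without WT allogeneic replicate 1, PERK-cKO allogeneic replicate 3 or PERK-cKO polyclonal replicate 3 (1.06, 1.02 and 0.92). Between the kinds of stimulation in PERK-cKO T cells both were higher after allogeneic stimulation, mt-Rnr1 by 1.36-fold and mt-Rnr2 by 1.51-fold (adjusted p = 0.0241 and 0.00566, edgeR), and mt-Rnr1 was not called without PERK-cKO allogeneic or polyclonal replicate 3 (0.32 and 0.22). In WT T cells their log2 fold changes were −0.71 and −0.12, neither called, and without WT polyclonal replicate 1 they were 0.020 and 0.71, the latter called (adjusted p = 0.00301, edgeR). Without WT polyclonal replicate 2 or 3, mt-Rnr1 was called lower (−1.02 and −0.91), and the polyclonal genotype difference was called lower for both ribosomal RNAs.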
